A study of Mus musculus with 8 samples.

Results

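AMP-activated protein kinase (AMPK) is the cell's main sensor of low energy, and the transcripts examined are those of its 7 subunit genes and of 2 kinases that switch it on. The 7 subunit genes are Prkaa1, Prkaa2, Prkab1, Prkab2, Prkag1, Prkag2 and Prkag3, and the 2 upstream kinase genes are Stk11 and Camkk2. They were chosen by name, as the genes of the known subunits and of these upstream kinases. All 9 were on the array, among 15957 named genes that could be tested.

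Signals were collected from tibialis anterior, a fast-twitch muscle at the front of the lower leg, on 8 single-colour Agilent arrays. The animals were male C57BL/6J mice of 14 weeks. There were 4 control samples and 4 from mice given the periodontal bacterium Porphyromonas gingivalis orally for 6 weeks. No transgene or mutation is named for either group. Per the labels' protocols, the mice entered at 8 weeks of age, were fed High-fat diet 32, and the bacteria were suspended in 100 µL of saline and given by feeding needle. The sources used here do not give what the controls received or how many bacteria were fed, and the protocol's own group names occur in no sample title. The labels leave unsaid whether every sample came from a mouse of its own, so p-values measure the spread between these samples. All 6 general muscle fibre markers (among them Acta1 and Ckm) were well above background on every array.

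A mismatch between the deposited sources touches every comparison. Each column of the authors' value table was paired with the array it follows. For 4 of the 8 arrays the table's column carries the other group (controls 3 and 4, and P. gingivalis 1 and 2). Groups here follow the scanner files, and arrays are numbered as those files' labels number them. A separation without overlap given below holds for these groups only, because each of the table's groups holds arrays of both. Controls also lay in slide row 1 and P. gingivalis arrays in slide row 2, so a row effect and a group effect cannot be told apart. The 75th percentile of the processed signal was 275 to 306 in the controls and 238 to 255 in the P. gingivalis arrays, before each array was scaled to it. The correlation between arrays over tested probes was 0.9909 to 0.9949.

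AMPK is a trimer of a catalytic alpha subunit, a scaffolding beta subunit and a gamma subunit that binds adenine nucleotides. When AMP or ADP replaces ATP on the gamma subunit, the kinase is activated through phosphorylation of the alpha subunit's activation loop by LKB1 (encoded by Stk11), while CaMKK2 does so in response to calcium. In skeletal muscle the active enzyme promotes glucose uptake and fatty acid oxidation and restrains lipid and protein synthesis. Activity is set largely by phosphorylation and nucleotide binding, which these arrays do not measure.

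The array carried 19 probes for the 9 genes, each 60 bases long. A probe was tested if 4 or more of the 8 arrays showed it well above background, which left 15, and 14 of these passed on all 8. Probes of a gene are told apart here by the position in the listed transcript at which they start. The sequences shown are the first 30 of 60 bases, in lower case as no stretch is singled out, from the scanner files. Shown are the 3 Prkag3 probes, among them the 1 with an unadjusted p under 0.05, the 2 Prkaa1 probes, which were designed on different transcripts, and the brightest Camkk2 probe, since 3 of that gene's 5 probes were never above background.

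Prkag3 probe at 2728 (mm9 chr1:74785540-74785599, minus strand, NM_153744): attaatctcagtcaattctgggtctcttca
Prkag3 probe at 1580 (mm9 chr1:74787214-74787273, minus strand, NM_153744): gagtcctcacacccaagccatcttcttcac
Prkag3 probe at 563 (mm9 chr1:74793841-74793900, minus strand, NM_153744): gaaggacaggcctcgtcctggtccatcccc
Prkaa1 probe at 4181 (mm9 chr15:5131426-5131485, plus strand, NM_001013367): atttctcatgaaaggaacttttctaccaag
Prkaa1 probe at 846 (mm9 chr15:5111888-5111947, plus strand, XM_006519951): ccctcacatcatcaaactgtaagtccagct
Camkk2 probe at 2735 (mm9 chr5:123183273-123183332, minus strand, NM_001199676): tgcgagcattcctcagctgtggtggtagag

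Probes of 1 gene shared no run of 8 or more bases, except the Camkk2 probes at 779 and 2085, which shared 12 and were both untested. The exon or untranslated region under each probe was not resolved, because no annotation of the mm9 build was used here. The Prkaa2 probe at 1464 spans 428 genomic bases, more than its 60, so it crosses at least 1 intron.

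No AMPK subunit or upstream kinase transcript differed detectably between P. gingivalis and control muscle after adjustment. No probe of the 9 genes passed an adjusted p of 0.05 (limma, Benjamini-Hochberg over all tested probes; adjusted p of 0.419 to 0.994), nor did any of the 31649 probes tested (0 of 31649, or 0%). At an unadjusted p under 0.05, 1 of the 15 member probes was higher, a Prkag3 probe, and 0 were lower. In the exact permutation test of single probes 0 of the 15 were under 0.05, where the smallest p that 4 against 4 arrays can give is 0.0286. Over all tested probes 1532 (4.84%) were higher and 2012 (6.36%) lower at a limma unadjusted p under 0.05. The limma count of 1 in 15 is near that background. None of the 15 separated the groups without overlap, against 2112 probes (6.67%) of all tested.

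With the brightest tested probe standing for each gene, 4 member genes were higher and 5 lower, with a median log2 difference of -0.0028 against -0.0143 over all genes. The median size of the difference, regardless of sign, was 0.055 against 0.09 over all genes. The 95% confidence intervals of the 9 genes together ran from 0.75-fold to 1.28-fold. A change beyond those bounds lies outside the intervals of these brightest probes, while smaller changes could not be resolved with 4 arrays a group. Some dimmer probes had intervals beyond those bounds. They reached 1.46-fold for Prkag3 at 1580 and 1.34-fold for Prkab1 at 940, and ran from 0.447- to 1.56-fold for Camkk2 at 2856. Levels of different probes are not compared, since a probe's brightness also depends on its sequence.

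**Figure D1:**
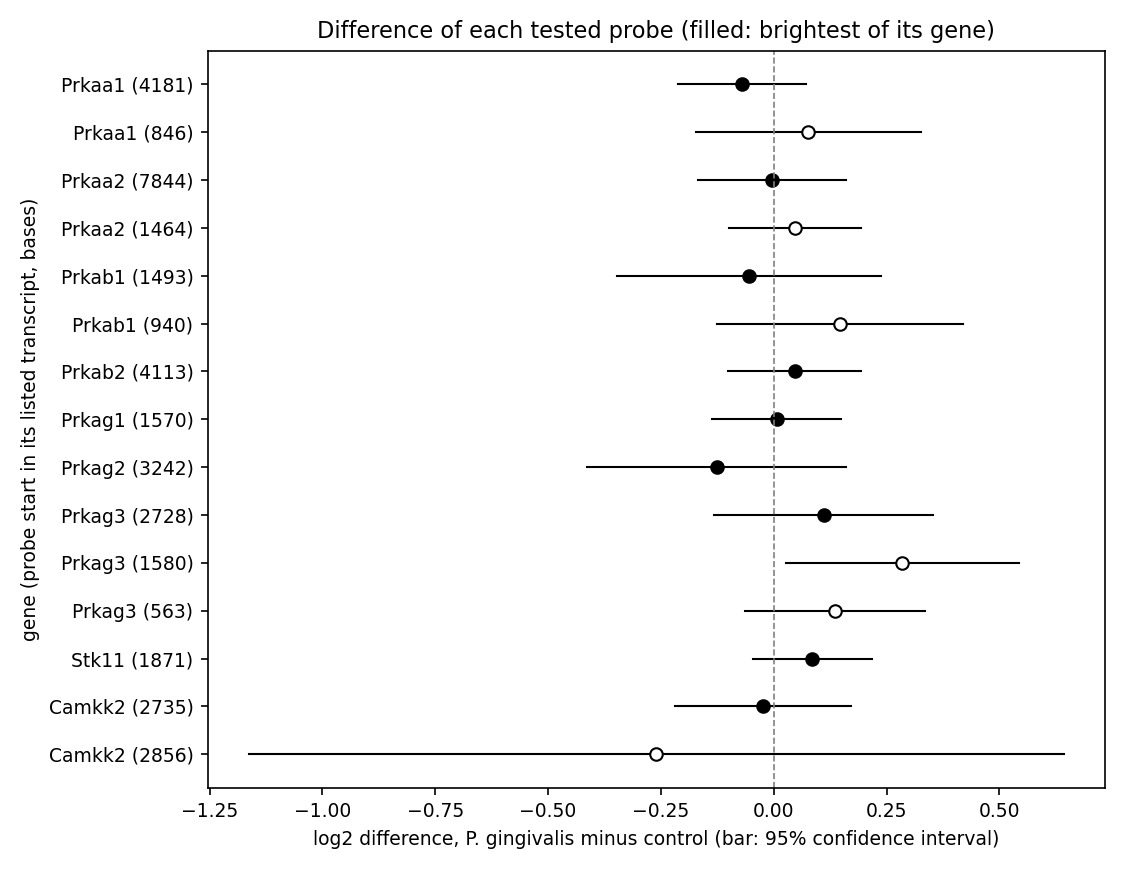
Log2 difference between P. gingivalis and control for each of the 15 tested probes, with its 95% confidence interval; rows give the gene and the probe's start in its transcript in bases, and filled points are the brightest probe of a gene. The interval of the Prkag3 probe at 1580 lies above 0, and the other 14 include 0.

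Of the alpha subunits, which carry the kinase domain, Prkaa2 encodes alpha2, the main catalytic form of skeletal muscle. Its brightest probe (at 7844, chr4:104702552-104702611) read 4.64, 4.78, 4.54 and 4.60 in controls 1 to 4 and 4.73, 4.60, 4.57 and 4.64 in P. gingivalis arrays 1 to 4. All levels are log2 signal above the array's 75th percentile. The groups covered nearly the same range, and the difference was -0.0028 ± 0.07 (SE; 0.891- to 1.12-fold, exact permutation p = 0.943, limma adjusted p = 0.994). The second Prkaa2 probe, at 1464, differed by 0.05 ± 0.06. Among the brightest probes of the 9 genes, that of Prkaa2 had the smallest difference.

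Prkaa1 encodes alpha1, the catalytic form found in most tissues. Its probe at 4181 read 0.84, 0.81, 0.84 and 0.84 in the controls and 0.81, 0.84, 0.75 and 0.65 in the P. gingivalis arrays. The controls were almost identical (SD 0.01) and the P. gingivalis arrays spread more widely (SD 0.09), with arrays 3 and 4 below every control. The difference was -0.07 ± 0.06 (exact permutation p = 0.257, limma adjusted p = 0.688). The probe at 846, designed on a predicted transcript variant, differed the other way, by 0.08 ± 0.11 (exact permutation p = 0.514), and its groups overlapped.

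**Figure D2:**
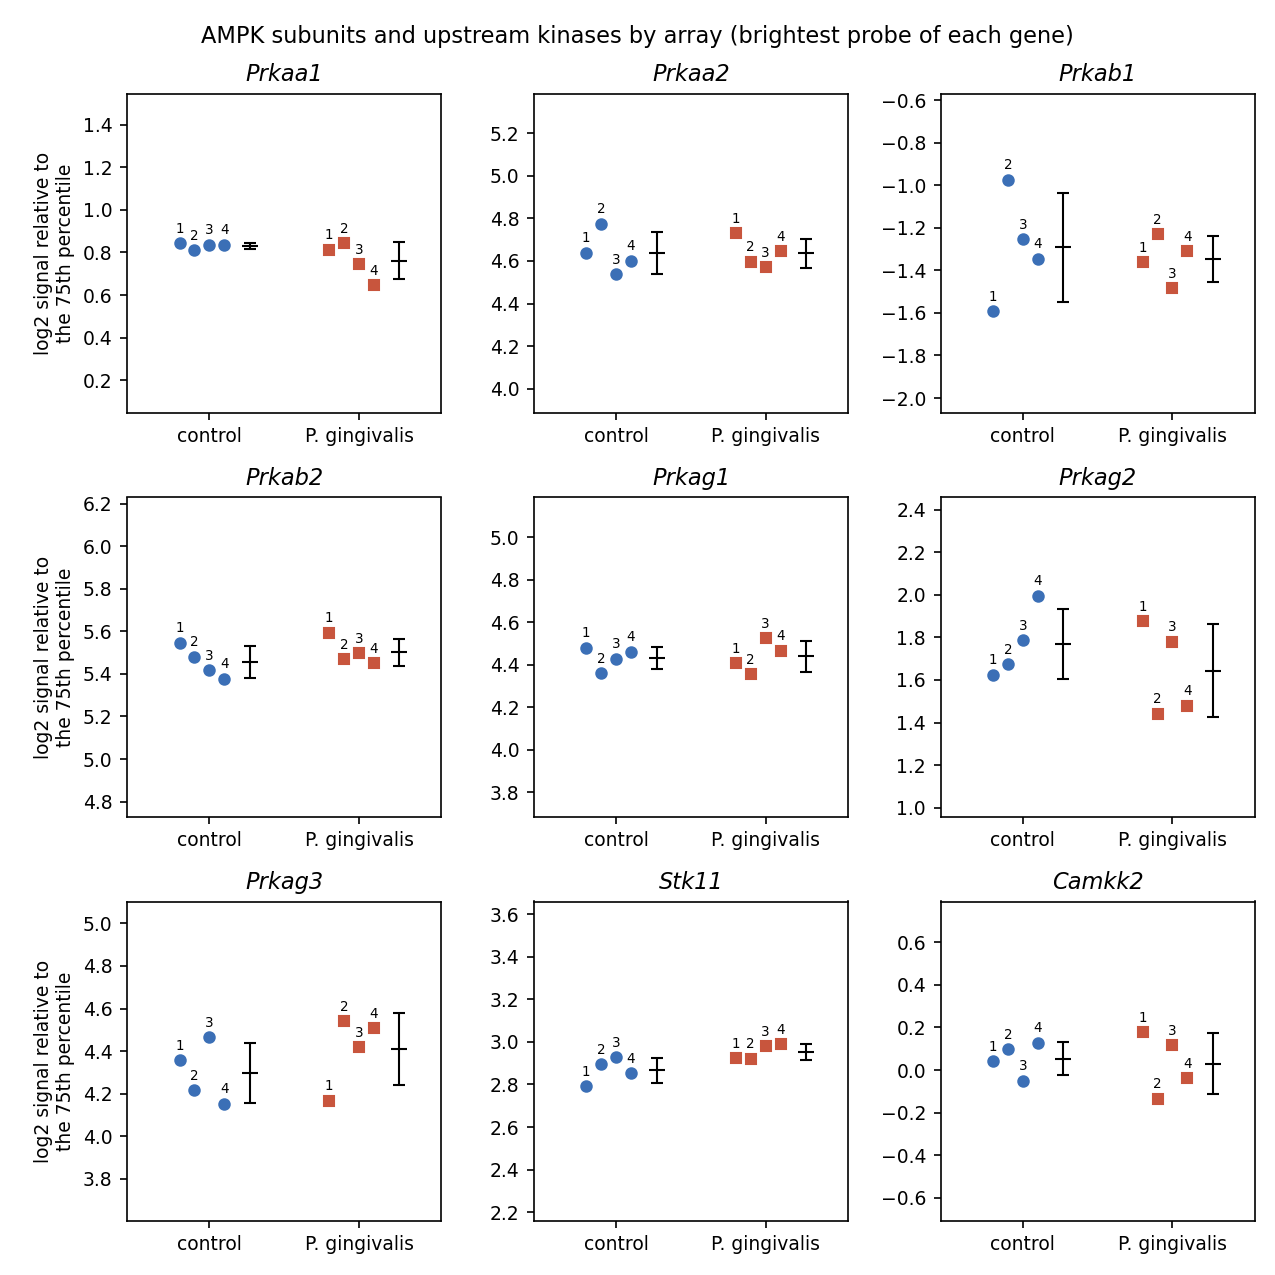
Log2 signal of the brightest probe of each of the 9 genes relative to the array's 75th percentile, by group; each point is 1 array with its number, and bars are the mean ± SD of 4 arrays. The 2 groups overlap in all 9 panels, whose vertical axes have equal length in log2 units.

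The beta subunits hold the trimer together and bind glycogen, and Prkab2 encodes beta2, the form most typical of skeletal muscle. Prkab2 (probe at 4113, chr3:97476843-97476902) read 5.55, 5.48, 5.42 and 5.38 in the controls and 5.59, 5.47, 5.50 and 5.45 in the P. gingivalis arrays. The 2 groups interleaved, with a difference of 0.05 ± 0.06 (0.932- to 1.14-fold, exact permutation p = 0.371, limma adjusted p = 0.809). With the value table's groups the sign turned (-0.09). Prkab1, encoding beta1, was noisier: its probe at 1493 (chr5:116464097-116464156) read -1.59, -0.97, -1.25 and -1.34 in the controls against -1.36, -1.23, -1.48 and -1.31. Every P. gingivalis value fell inside the range of the controls, and the difference was -0.05 ± 0.13 (exact permutation p = 0.8, limma adjusted p = 0.894). A second Prkab1 probe, at 940, differed by 0.15 ± 0.12 (exact permutation p = 0.343), opposite in sign.

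The gamma subunits are the nucleotide sensors of the complex. Prkag1, encoding the widely expressed gamma1, read 4.48, 4.36, 4.43 and 4.46 in the controls and 4.41, 4.36, 4.53 and 4.47 in the P. gingivalis arrays (probe at 1570, chr15:98643237-98643296). The means were 4.43 ± 0.05 and 4.44 ± 0.07 (SD, n = 4 each), a difference of 0.01 ± 0.06 (SE; exact permutation p = 0.943, limma adjusted p = 0.982). Prkag2 encodes gamma2, the isoform in which inherited mutations cause a glycogen-storage cardiomyopathy. It read 1.63, 1.68, 1.79 and 1.997 in the controls and 1.88, 1.44, 1.78 and 1.48 in the P. gingivalis arrays (probe at 3242, chr5:24368591-24368650). P. gingivalis arrays 2 and 4 were below every control while arrays 1 and 3 were not. The difference of -0.13 ± 0.13 was the largest in size among the brightest probes of the 9 genes, and it did not pass the test (0.75- to 1.12-fold, exact permutation p = 0.4, limma adjusted p = 0.72). With the value table's groups it was 0.11. The other Prkag2 probe was well above background on 0 of 8 arrays.

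Prkag3 encodes gamma3, whose expression is largely limited to fast glycolytic skeletal muscle and which is known from the glycogen-rich meat of pigs carrying a mutation in it. All 3 of its probes, spread along the transcript, were higher in the P. gingivalis arrays, and 1 had an unadjusted p under 0.05 in limma. The probe at 1580 read 0.997, 1.19, 1.46 and 1.08 in the controls and 1.29, 1.57, 1.47 and 1.54 in the P. gingivalis arrays. P. gingivalis arrays 2, 3 and 4 were above every control, and control 3 was above P. gingivalis 1. The means were 1.18 ± 0.20 and 1.47 ± 0.13 (SD, n = 4 each), a difference of 0.29 ± 0.11 (SE; 1.22-fold, 95% interval 1.02 to 1.46; limma unadjusted p = 0.034, exact permutation p = 0.0571, limma adjusted p = 0.419). This size was exceeded by 13.1% of all tested probes.

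The brightest Prkag3 probe, at 2728, read 4.36, 4.22, 4.46 and 4.15 in the controls and 4.17, 4.54, 4.42 and 4.51 in the P. gingivalis arrays. Here P. gingivalis arrays 2 and 4 were above every control, while array 1 was near the lowest control, and the difference was 0.11 ± 0.11 (exact permutation p = 0.314, limma adjusted p = 0.708). The probe at 563 read -1.03, -1.14, -0.99 and -1.11 in the controls against -0.90, -1.12, -0.75 and -0.96, a difference of 0.14 ± 0.09 (exact permutation p = 0.171, limma adjusted p = 0.581). For this probe P. gingivalis arrays 1, 3 and 4 were above every control and array 2 was not. The P. gingivalis arrays not above every control were therefore array 1 at 1580, arrays 1 and 3 at 2728 and array 2 at 563.

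The limma call on the Prkag3 probe at 1580 at an unadjusted p under 0.05 did not hold in most fits with 1 array left out. It was lost without control 1, 2 or 4 and without P. gingivalis 2, 3 or 4, and it was kept without control 3 or P. gingivalis 1. In some of the fits that lost it the difference hardly moved. It was 0.289 without control 2 and 0.285 without P. gingivalis 3, against 0.285 with all arrays. The difference itself stayed between 0.22 and 0.38 over those 8 fits, with exact permutation p from 0.0571 to 0.114. With the smaller tail doubled, as for single probes here, 3 against 4 arrays cannot go below 0.0571. Under the value table's groups the difference shrank to 0.12 (exact permutation p = 0.457). Over the 4 arrays on whose group the sources concur it was 0.41, where 2 against 2 arrays cannot go below the exact permutation p = 0.333 that was found. The value table holds the 563 probe alone of the 3, with a difference of 0.09 under its own labels. All 3 probes kept their sign in every alternative that was run on them.

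Fast fibre markers were also higher in the P. gingivalis arrays. Of 10 fast fibre genes (among them Myh4, Actn3 and Pvalb), 9 were higher and 1 lower, with a median log2 difference of 0.13 and 0 past the adjusted p. Their summed signal, with the array's 75th percentile set to 1, was 6656, 6013, 6402 and 6031 in the controls and 7010, 6663, 6902 and 6801 in the P. gingivalis arrays. These sums did not overlap between the groups, though control 1 (6656) and P. gingivalis 2 (6663) nearly met. With the value table's groups they overlap, as they must when each of those groups holds arrays of both. The 7 slow fibre genes were also all higher, with sums of 256 to 299 against 291 to 299. Their part in the Prkag3 values was not tested, and in whole muscle a different share of a fibre type and different RNA per fibre cannot be told apart.

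**Figure D3:**
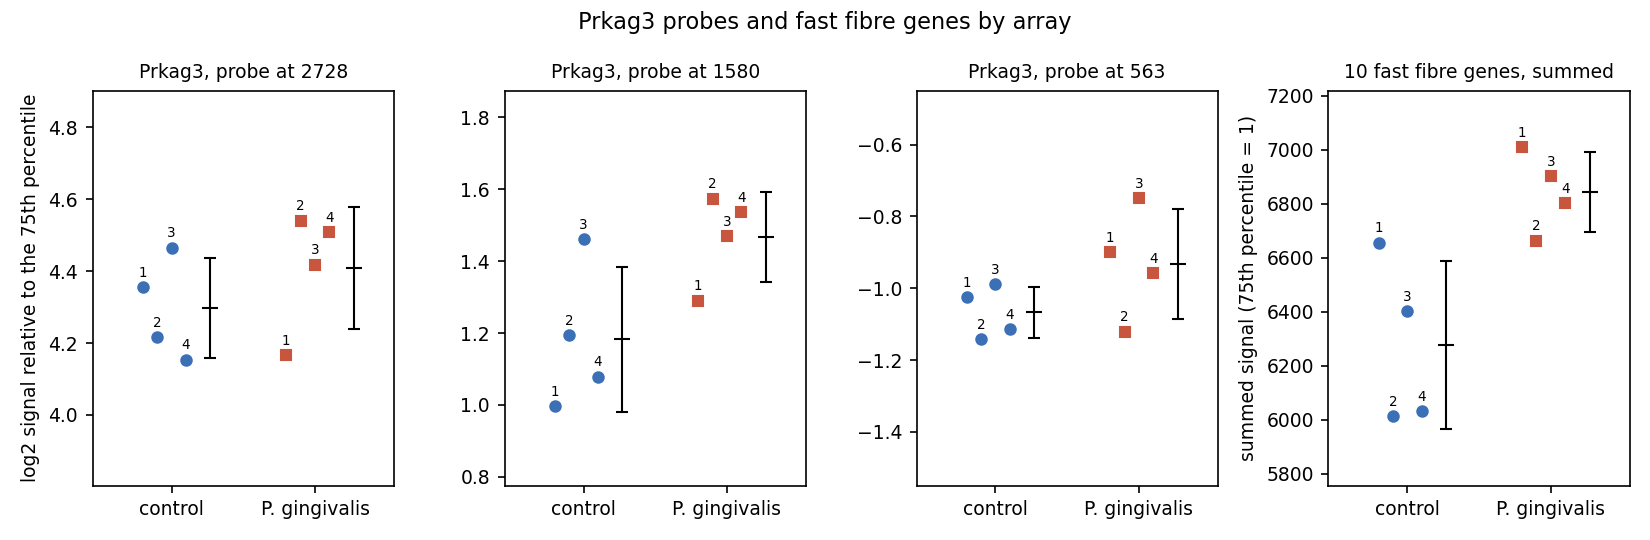
The first 3 panels give the log2 signal of each Prkag3 probe relative to the array's 75th percentile, by group; the fourth gives the summed linear signal of 10 fast fibre genes, with the 75th percentile set to 1. Each point is 1 numbered array and bars are the mean ± SD of 4 arrays. The Prkag3 groups overlap at each probe, and the fast fibre sums do not under the scanner files' groups.

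Stk11 encodes LKB1, the constitutively active kinase that phosphorylates AMPK in contracting muscle. It read 2.79, 2.90, 2.93 and 2.85 in the controls and 2.92, 2.92, 2.98 and 2.99 in the P. gingivalis arrays (1 probe, at 1871, chr10:79590785-79590844). P. gingivalis 3 and 4 were above every control, and 1 and 2 lay within the controls' upper range. The difference was 0.09 ± 0.06 (0.969- to 1.16-fold, exact permutation p = 0.0857, limma adjusted p = 0.597), and it was positive in every alternative run.

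Camkk2 encodes the calcium-dependent kinase, which is best known from brain. Its brightest probe, at 2735, read 0.04, 0.10, -0.05 and 0.13 in the controls and 0.18, -0.13, 0.12 and -0.04 in the P. gingivalis arrays. The P. gingivalis arrays lay on both sides of the controls, with a difference of -0.02 ± 0.08 (0.859- to 1.13-fold, exact permutation p = 0.771, limma adjusted p = 0.934). Of the other 4 Camkk2 probes, 3 were well above background on no array. The last, at 2856, was so on 2 arrays of each group and differed by -0.26 ± 0.39 (exact permutation p = 0.6), an interval of 0.447- to 1.56-fold that says little either way.

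Isoform balance was read as the log2 ratio of 2 genes within an array, which does not depend on how the array was scaled. Its level has no meaning between probes, so the groups are compared and not the genes. Prkaa2 to Prkaa1 was higher by 0.07 after P. gingivalis (exact permutation test, two-sided, p = 0.4). Prkab2 to Prkab1 was higher by 0.10 (exact p = 0.543). Prkag2 to Prkag1 was lower, at -0.13 (exact p = 0.343), and Prkag3 to Prkag1 was higher by 0.10 (exact p = 0.343). None of the 4 ratios differed beyond the spread between arrays; adjusted over the 4, the p-values were 0.533 to 0.543.

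The Prkag3 to Prkag1 ratio read -0.12, -0.15, 0.04 and -0.31 in the controls and -0.24, 0.18, -0.11 and 0.04 in the P. gingivalis arrays. Arrays 2 and 4 of the P. gingivalis group were above every control. With the Prkag3 probe at 1580 in place of the brightest the difference was 0.28 (exact permutation p = 0.114), and with that at 563 it was 0.13 (exact permutation p = 0.0857). The choice of these probes was made after their values were seen.

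**Figure D4:**
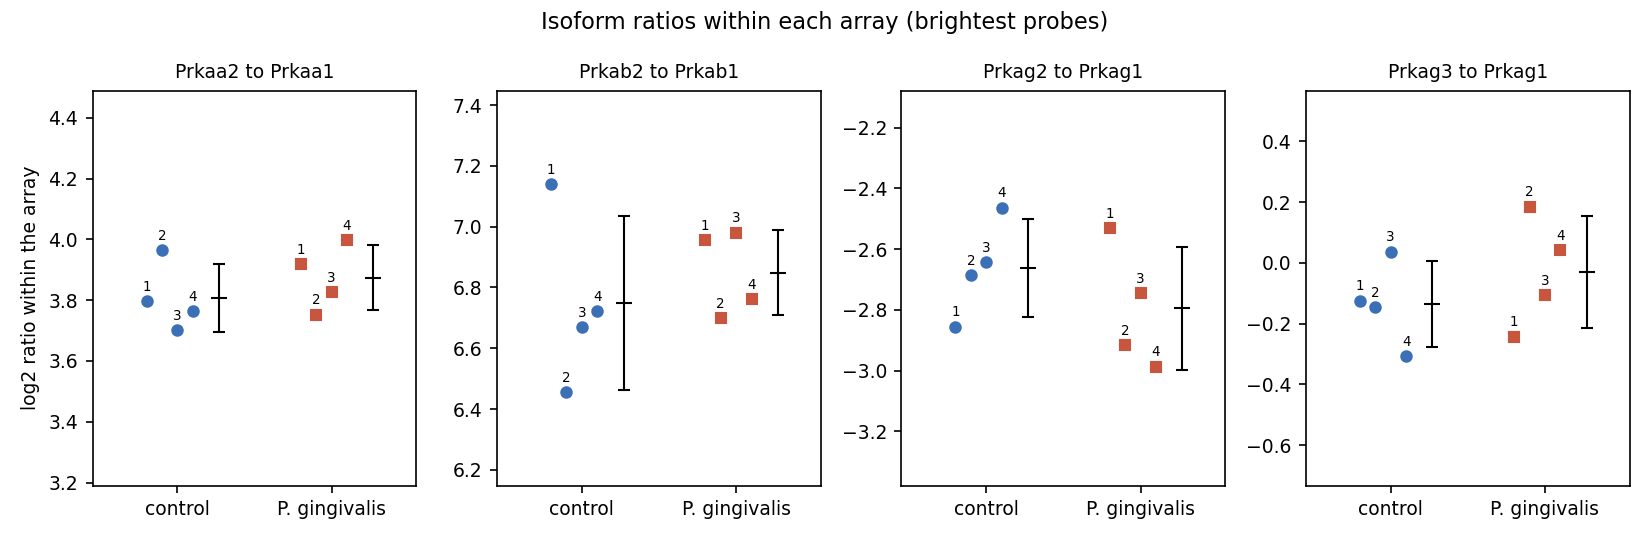
Log2 ratio of 2 subunit genes within each array, from the brightest probe of each gene, by group; each point is 1 numbered array and bars are the mean ± SD of 4 arrays. The groups overlap for all 4 ratios.

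Around the 9 genes, 58 other genes of the pathway could be tested, and none passed the adjusted p. At an unadjusted p under 0.05, 3 of them (5.17%) were higher and 5 (8.62%) lower, against 776 (4.86%) and 931 (5.83%) of the 15957 genes tested. These shares are near the background. With normexp background correction the background itself moved, to 2859 genes (17.9%) higher and 1345 (8.43%) lower. Of the 58 pathway genes, 6 (10.3%) were then higher and 9 (15.5%) lower. The median log2 difference over the 58 was -0.03.

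LKB1 works in a complex with a STRAD pseudokinase, which holds it active, and a MO25 scaffold. The 4 genes of these partners differed little at their brightest probe: Stradb by 0.07, Strada by 0.05, Cab39l by 0.01 and Cab39 by -0.01. Stradb probes did not act alike, however, with 3 dimmer probes under an unadjusted p of 0.05 in limma. The first was higher by 0.34 (limma unadjusted p = 0.0291, exact permutation p = 0.0857). The others were lower, at -0.53 (limma unadjusted p = 0.0232, exact permutation p = 0.114) and -0.46 (limma unadjusted p = 0.0485, exact permutation p = 0.114). Strada and Cab39l also had probes of both signs, and a dimmer Cab39l probe was higher by 0.19 (limma unadjusted p = 0.0442, exact permutation p = 0.0857). By brightest probe alone the list had 3 genes higher and 1 lower, a median of 0.03, and 0 with an unadjusted p under 0.05.

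LKB1 also activates a family of AMPK-related kinases, and 11 of 12 listed could be tested (Brsk2 could not). Of these 4 were higher and 7 lower, with a median of -0.08. Nuak2, a stress-responsive member, had an unadjusted p under 0.05. It read -2.84, -3.17, -2.60 and -2.65 in the controls and -3.11, -3.13, -3.01 and -3.20 in the P. gingivalis arrays. The P. gingivalis arrays were close together, with control 2 inside their range, and the difference was -0.29 ± 0.12 (exact permutation p = 0.114, limma adjusted p = 0.44). Nuak1 (-0.19, exact permutation p = 0.0857) and Sik3 (-0.09, exact permutation p = 0.0571) came next in limma. A second Nuak1 probe was lower without overlap, at -0.25 ± 0.10 (limma unadjusted p = 0.03, exact permutation p = 0.0286). Snrk went the other way, with a dimmer probe higher without overlap by 0.11 (limma unadjusted p = 0.0742, exact permutation p = 0.0286). Snrk is named after its value was seen. Of all tested probes, 2112 (6.67%) had groups that did not overlap.

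Among 14 other upstream regulators, 6 were higher and 8 lower, with a median of -0.03. Flcn encodes folliculin, whose loss activates AMPK in several models. It read 3.76, 3.44, 3.31 and 3.53 in the controls and 3.33, 3.20, 3.31 and 3.16 in the P. gingivalis arrays. P. gingivalis 1 and 3 lay at the level of the lowest control and 2 and 4 below it, and the difference was -0.26 ± 0.10 (exact permutation p = 0.0857, limma adjusted p = 0.417). A second Flcn probe was lower too, at -0.34 ± 0.10 (exact permutation p = 0.0286). Sesn3, encoding a stress-induced sestrin, was higher by 0.20 ± 0.09 (exact permutation p = 0.0571, limma adjusted p = 0.444), with 3 P. gingivalis arrays above every control; its dimmer probe differed by 0.05. Calm2, a calmodulin gene, differed by -0.17 (exact permutation p = 0.114). A dimmer Map3k7 probe was higher without overlap, by 0.10 (limma unadjusted p = 0.12, exact permutation p = 0.0286). Map3k7 is named after its value was seen, and its brightest probe differed by 0.03.

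The 20 AMPK substrates held the largest difference in size among the pathway lists, with 7 higher and 13 lower, with a median of -0.03. Tbc1d4 encodes AS160, a Rab GTPase-activating protein that holds back the glucose transporter GLUT4 until it is phosphorylated. It read 0.97, 1.31, 0.85 and 1.05 in the controls and 0.45, 0.65, 0.56 and 0.45 in the P. gingivalis arrays. The groups did not overlap, and the difference was -0.52 ± 0.10 (0.699-fold, 95% interval 0.592 to 0.824; exact permutation p = 0.0286), yet the adjusted p in limma was 0.309. Its 2 other probes were lower by a like amount, at -0.46 and -0.54. The separation holds under the scanner files' groups only. With the value table's groups controls 3 and 4 and P. gingivalis 1 and 2 change places. Values that separate the scanner files' groups must then overlap, so the overlap seen at the brightest probe is no separate check.

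Tbc1d1, the paralog of Tbc1d4, was higher by 0.23 ± 0.10 at its brightest probe (exact permutation p = 0.0857, limma adjusted p = 0.442), and its 2 other probes differed by 0.36 ± 0.14 (exact permutation p = 0.0571) and -0.22 ± 0.33 (exact permutation p = 0.629). Hdac5, a class IIa histone deacetylase, read 4.58, 4.62, 4.63 and 4.59 in the controls against 4.36, 4.38, 4.40 and 4.54. Every P. gingivalis array was below every control, with a difference of -0.19 ± 0.06 (exact permutation p = 0.0286, limma adjusted p = 0.367). Acacb encodes ACC2, which makes the malonyl-CoA that restrains mitochondrial fat oxidation, and it read 5.33, 5.41, 5.31 and 5.38 against 5.20, 5.25, 5.23 and 5.16. Those groups did not overlap either, with a difference of -0.14 ± 0.06 (exact permutation p = 0.0286, limma adjusted p = 0.417), and its 2 other probes differed by -0.12 and -0.11. Such a separation, in either direction, was found in 6.67% of all tested probes. With the value table's groups the Hdac5 and Acacb values must overlap as well, for the same reason as Tbc1d4. Pfkfb3 had the largest value of the list, at -0.65 ± 0.40, with groups that overlapped (exact permutation p = 0.171). It is singled out after its value was seen. Other substrates had a limma unadjusted p under 0.05 at a dimmer probe and not at the brightest. Acaca (0.21), Tsc2 (0.19), Crtc2 (0.27) and Mff (0.14) were higher there, each without overlap (exact permutation p = 0.0286). Pfkfb2 (-0.31) was lower (exact permutation p = 0.114).

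Of 10 genes raised by AMPK activation in muscle, 3 were higher and 7 lower, with a median of -0.03. Ucp3, a mitochondrial uncoupling protein of muscle, was the 1 with an unadjusted p under 0.05. It read 2.30, 2.18, 2.43 and 2.34 in the controls and 2.74, 2.68, 2.42 and 2.45 in the P. gingivalis arrays. Arrays 1, 2 and 4 of the P. gingivalis group were above every control, and the difference was 0.26 ± 0.10 (exact permutation p = 0.0571, limma adjusted p = 0.401). Cd36, a fatty acid transporter, differed by -0.13 and Vegfa, an angiogenic factor, by -0.18, neither past the test.

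**Figure D5:**
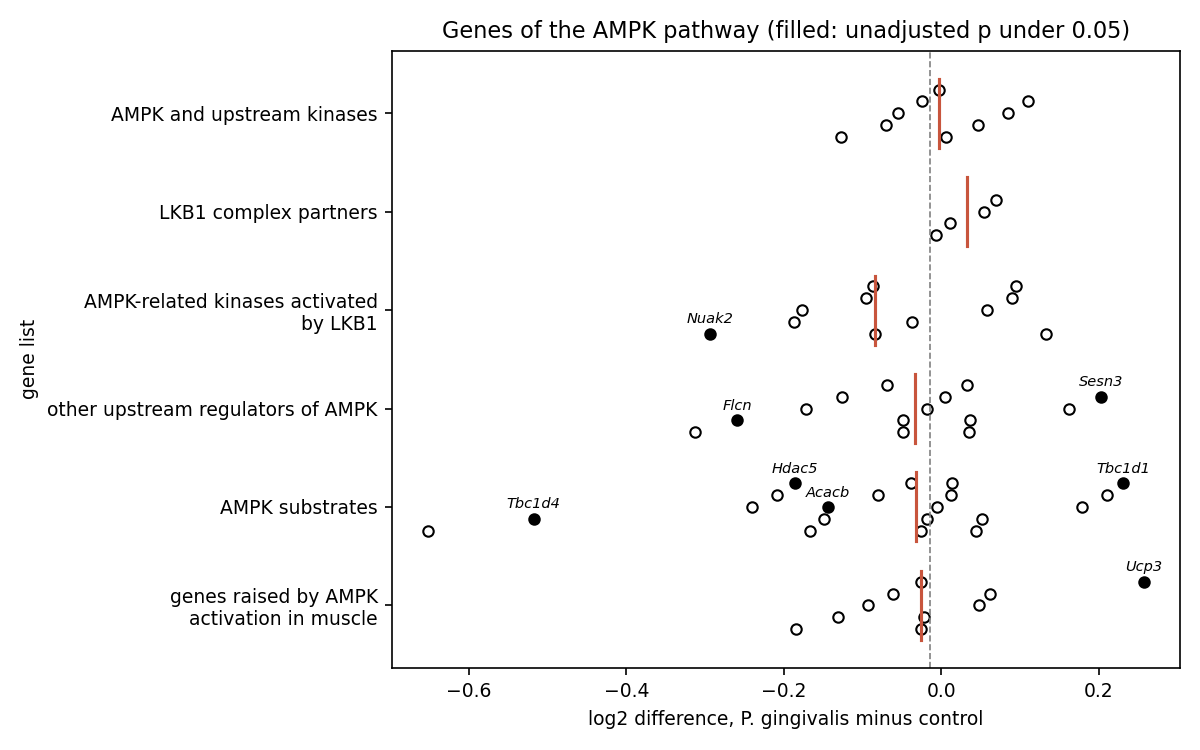
Log2 difference between P. gingivalis and control for the brightest probe of each tested gene in 6 lists; each circle is 1 gene, filled where the unadjusted p is under 0.05, red bars are list medians, and the dashed line is the median of all genes at -0.0143. List medians lie between -0.08 and 0.03, and no gene passes the adjusted p.

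Markers of other cells moved between the groups beside these pathway values. All 8 fibroblast markers were higher (sums of 243 to 321 in the controls and 308 to 364 in the P. gingivalis arrays). All 6 smooth muscle and pericyte markers were higher as well (311 to 343 against 351 to 385). The 8 endothelial markers were all lower (36.5 to 42.5 against 28.3 to 37.6). Adipocyte markers split 4 higher and 2 lower, with a sum that was lower without overlap (83.7 to 98.0 against 70.4 to 81.7). Macrophage markers were higher in 6 of 7 (20.8 to 26.7 against 24.3 to 33.4), and neutrophil markers lower in 5 of the 6 tested (1.68 to 4.67 against 1.93 to 2.08). The sums of fibroblast, endothelial, macrophage, neutrophil, satellite cell, Schwann cell and erythroid markers overlapped between the groups. Smooth muscle and pericyte sums did not overlap. The satellite cell marker Myf5 was above background on no array. No marker passed the adjusted p, and the markers' part in the values of Tbc1d4, Hdac5, Acacb, Flcn, Nuak2, Sesn3, Tbc1d1 and Ucp3 was not tested.

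The genes whose signal followed a member most closely over the 8 arrays were named for Prkaa2, Prkag3 and Stk11. Nop56 (Pearson r = 0.971), Cradd (0.963) and Psma2 (0.953) were nearest to Prkaa2. Arhgap12 (0.960), Fbxl8 (0.954) and Ralgapa1 (0.951) were nearest to the brightest Prkag3 probe. Lhx1os (0.974), 4930481A15Rik (0.963) and Spata17 (0.962) were nearest to Stk11. Each is the top of 15944 genes ranked over 8 arrays that share a slide, so the values are a description only.

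The RefSeq promoter table (GRCm38.p6) held 11 promoters of the 9 genes. Their 250 bases before the start held 4 to 45 CpG dinucleotides, against a median of 6 over all 32851 promoters. Prkaa1 had 45, Camkk2 32, Prkab2 18, Prkag1 12 and Prkag3 9, and the 3 Prkag2 promoters had 34, 23 and 4. The letters TATAAA, read on both strands, were in 0 of the 11 windows and in 12.4% of all promoters.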

How the data were processed

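The deposited scanner files hold spot intensity values that the authors extracted with Agilent Feature Extraction. Its version is 11.0.1.1 per the file headers, which place probes on mm9, and 11.1 in the submitters' processing notes. Labelled cRNA was made from 200 ng of RNA with Cy3, per the labels' protocols. The processed intensity was background-subtracted within its array and not normalized between arrays, per the file headers. The authors also deposited a table of log2 values for 24764 probes, with column medians of 7.36 to 7.37. How it was scaled is not given in the sources used here. Its columns were matched to arrays by correlation of probe-centred values (best match 0.833 to 0.88, next best at most 0.0784), and the group concurred for 4 of 8 columns.

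From the 59305 non-control spots, outlier spots (0.108% to 0.218%) were left out, each array's 75th percentile of log2 processed intensity was subtracted, and spots were averaged by probe. The share of spots well above background was 56.3% to 59.3%, and 0 were saturated. Of 56605 probes, 43597 were named by a current symbol or synonym in RefSeq's gene table (GRCm38.p6), and 31649 were tested. The brightest tested probe stands for a gene. The comparison used limma 3.58.1 (R 4.3.3) without covariates, and p-values were adjusted by Benjamini-Hochberg across every tested probe at a threshold of 0.05. The procedure was tested on simulated data with changes larger than any difference reported here. That test does not show whether changes of the reported size would be found. Alternatives were quantile normalization, normexp with an offset of 50, other filters, an intensity trend, a replicate block, leaving out each array, and the value table's values or groups. Ratios, and single probes beside limma, used the two-sided exact permutation test over 70 assignments; for single probes (15 of members and 121 of pathway genes) it was added after seeing the data, and its p-values are unadjusted. The number of arrays limits the precision.

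The member genes, gene lists and tests were chosen with earlier results of these data known. The text names all member probes, the LKB1 partners, the 3 genes of lowest p from each other list, the 3 genes most like Prkaa2, Prkag3 and Stk11, and genes said to be chosen later. Tbc1d1 is added to give every pathway gene whose brightest probe had an unadjusted p under 0.05.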

Additional observations from a re-analysis of the deposited data

How the results depend on the processing

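No probe of the 9 genes passed the adjusted p under any of 17 alternatives, and the lowest adjusted p was 0.107. Over all tested probes the count past the adjusted p, 0 as reported, was 14 with normexp, 2 without a filter and 2 with an intensity trend. The count of member probes with an unadjusted p under 0.05, 1 as reported, was 0 among the 10 member probes in the value table, which does not hold the Prkag3 probe counted, 0 with the table's groups, and 0 to 1 when 1 array was left out (0 without control 1, 2 or 4 or P. gingivalis 3 or 4). Without P. gingivalis 2 the 1 probe was the Prkag3 probe at 563 (exact permutation p = 0.0571). Pathway genes with an unadjusted p under 0.05, 3 higher and 5 lower as reported, were 6 and 9 with normexp (all genes 17.9% and 8.43%). In the value table they were 0 and 0 of 57 genes (all genes 1.39% and 1.91%). Quantile normalization left 3 lower (5.17%, all genes 4.87%).

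Of 249 member differences recomputed, 224 kept their direction and 25 reversed. The cause of the reversals was not tested. Prkag2 and the Prkab1 probe at 940 reversed only where the value table's values or groups were used or, for Prkab1, on the 4 arrays whose group is the same in both. Normexp gave -0.0344 for the Prkab2 to Prkab1 ratio, 0.11 for the Camkk2 probe at 2856, 0.0027 for the Prkab1 probe at 1493, -0.0318 for Prkab2 and -0.0484 for Prkag1. Quantile normalization gave 0.0151 for the Prkaa2 probe at 7844. With its own labels, the value table gave -0.0082 for the Prkag3 to Prkag1 ratio, from the Prkag3 probe at 563. The brightest Prkag3 probe, at 2728, is not in that table, and scanner values gave 0.13 with the probe at 563. For single probes the table gave -0.11 for the Prkab1 probe at 940, -0.10 for Prkab2 and 0.10 for Prkag2. The table's groups on scanner values gave -0.15, -0.0876 and 0.11 for those 3 probes. The 4 arrays with 1 group in both sources gave -5.91e-05 for the Prkab1 probe at 940 and -0.0413 for Prkab2. Leaving out 1 array moved the Prkaa1 probe at 846 from -0.0064 to 0.17, Prkaa2 at 7844 from -0.0359 to 0.0428, Prkab1 at 1493 from -0.16 to 0.0507, and Prkag1 from -0.0225 to 0.0337. It moved Camkk2 at 2735 from -0.0734 to 0.0307 and at 2856 from -0.47 to 0.0795.

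Same-numbered arrays did not deviate together (correlations of 0.0069 to 0.0629), which does not show that the samples were unpaired. With the replicate block the counts were 0, 0 and 1, the Prkag3 probe at 1580 kept its limma call, and the ratios had p of 0.375 to 0.5 by an exact sign-flip test, which cannot go below 0.125 with 4 pairs. Slide column equals the replicate number, so no separate fit was run. Dim probes, such as the untested Camkk2 probes, have only a bound.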
